A study of Mus musculus with 8 samples.

Results

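The expression of 9 genes of epithelial cells was followed through ribosome footprints and input RNA of the mouse olfactory epithelium: 5 basal genes (Krt5, Krt14, Krt15, Krt17 and the transcription factor gene Trp63) and 4 luminal genes (Krt8, Krt18, Krt19 and Krt90). They were chosen by name from the 22553 genes of the deposited table, and all 9 were found. Ribosome footprints are the stretches of mRNA that ribosomes protect, and input RNA is the RNA of the same kind of sorted cells. The first pair of groups holds Ngn1-GFP positive cells, which the labels call neuronal progenitors and immature olfactory neurons. Its KO mice were homozygous for floxed Mex3a and carried Foxg1iresCre, and its controls had floxed Mex3a (1 or both alleles, per the descriptions; homozygous, per the genotype tag) and no Cre. The second pair holds OMP-GFP positive cells, labelled mature olfactory neurons, from mice with the same Mex3a alleles, with Foxg1iresCre in the KO and without Cre in the controls. The genotype tag of the OMP-GFP KO reads OMP-ires-Cre, whereas its description reads OMP-ires-GFP, and the description was followed. Foxg1iresCre is the only Cre driver described, and neither ages nor any pooling of animals are stated. The labels list 2 footprint libraries a group, and the table gives 1 footprint column and 1 RNA column a group. No difference below therefore has a replicate check or a test, and brackets are 95% counting intervals, which leave out variation between animals and between sorts.

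Keratins are intermediate filament proteins that assemble only as pairs of an acidic type I and a basic type II chain. Krt5 (type II) pairs with Krt14, Krt15 or Krt17 (type I) in basal layers, and Krt8 (type II) pairs with Krt18 or Krt19 (type I) in simple epithelia. In the olfactory epithelium Krt5, Krt14 and Trp63 mark horizontal basal cells, the reserve stem cells, and Trp63 holds these cells in their resting state. Krt8 and Krt18 are known there from sustentacular cells, the glial-like support cells, and from gland ducts. Krt90 is a type II keratin gene, and it is kept among the luminal genes because the grouping given for the set places it there.

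In GRCm38.p6, the reference of the RefSeq table used here, the type I genes Krt15, Krt19, Krt14 and Krt17 lie on chromosome 11 between 100131759 and 100261029. The type II genes Krt90, Krt5 and Krt8 lie on chromosome 15 between 101552356 and 102004342. Krt18, although type I, lies next to Krt8 on chromosome 15 (102028216 to 102032026), with 23873 bases between them. Krt15 and Krt19 are neighbours as well, 4860 bases apart. Trp63 lies on chromosome 16, 25683763 to 25892088.

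RefSeq promoter windows were at hand for Krt8 and Krt18, neighbours with like RNA ratios of KO over control in both populations, and for Krt5 and Krt90, type II genes of the same stretch with other ratios. The 250 bases before each annotated start are shown 5′ to 3′ on the gene's strand, with motif matches in capitals. The windows are Krt8 chr15:102004343-102004592 (minus strand), Krt18 chr15:102027966-102028215 (plus strand), Krt5 chr15:101712906-101713155 (minus strand) and Krt90 chr15:101562951-101563200 (minus strand).
Krt8: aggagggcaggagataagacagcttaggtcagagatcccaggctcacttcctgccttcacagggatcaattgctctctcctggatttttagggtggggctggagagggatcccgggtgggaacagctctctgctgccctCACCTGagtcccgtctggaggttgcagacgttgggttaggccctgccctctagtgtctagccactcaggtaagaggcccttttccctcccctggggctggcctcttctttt
Krt18: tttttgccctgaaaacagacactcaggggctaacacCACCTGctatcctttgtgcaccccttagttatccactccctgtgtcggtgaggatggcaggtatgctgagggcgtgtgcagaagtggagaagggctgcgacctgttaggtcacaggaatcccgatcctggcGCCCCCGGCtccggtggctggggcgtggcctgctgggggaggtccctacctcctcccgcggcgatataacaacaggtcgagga
Krt5: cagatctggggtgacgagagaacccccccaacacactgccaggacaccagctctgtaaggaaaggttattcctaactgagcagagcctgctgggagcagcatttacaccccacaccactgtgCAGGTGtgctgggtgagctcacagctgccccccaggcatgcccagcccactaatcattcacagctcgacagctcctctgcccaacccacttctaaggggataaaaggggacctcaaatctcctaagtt
Krt90: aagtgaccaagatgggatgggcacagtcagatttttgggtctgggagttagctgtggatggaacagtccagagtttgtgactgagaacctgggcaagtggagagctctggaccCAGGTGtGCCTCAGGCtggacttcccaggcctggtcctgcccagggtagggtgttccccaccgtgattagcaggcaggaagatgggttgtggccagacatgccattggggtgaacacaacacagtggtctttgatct
Motifs of 5 kinds, chosen after the windows had been read, were searched on both strands, and no matches overlapped. The E-box was searched as CACCTG, and all 4 windows held 1 match to it, on the gene's own strand in Krt8 and Krt18 and on the other strand in Krt5 and Krt90. That motif was in 17.2% of 32851 promoter windows of this length. The motif of AP-2 factors was searched as GCCNNNGGC, and Krt18 and Krt90 held 1 match each (13.7% of all windows). No window held the AP-1 motif TGANTCA, which 6.75% of all windows held. None held the GC box GGGCGG, found in 32.7% of windows. The TATA box TATAAA, found in 12.4%, was in none of them either. These are matches of letters, and no factor was measured at them. A window at hand for Krt14 precedes a start that lies 1480 bases inside the gene, and it is not shown.

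The footprint columns held between 3031489 and 4456989 counts and the RNA columns between 26946592 and 89327877. Mex3a, the deleted gene, had 28 footprints in the Ngn1-GFP KO against 437 in its control (-3.34 [-3.95, -2.79]), and 5 in the OMP-GFP KO against 16 in its control (-1.80 [-3.60, -0.28]). Ratios are log2 of scaled counts throughout. A gene is called higher or lower when it was at least 2-fold apart with an interval that excluded no difference and 20 or more counts over its 2 columns. The Ngn1-GFP control columns stood apart. Its RNA column held 375 genes at 8 or more times their level in every other column, against 10, 5 and 1 in the Ngn1-GFP KO, OMP-GFP KO and OMP-GFP control, and none of the 9 genes was among them. In footprints the numbers were 54 in the Ngn1-GFP control against 13, 5 and 0 in the other columns in the same order, and Krt19 was among the 54. Each comparison with the Ngn1-GFP control rests on these columns, and no second control column exists to set in their place. In cells pooled by sorting, fewer cells of a type and less RNA in each cell cannot be told apart.

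Levels are given first, per length of coding sequence, as footprint RPKM and RNA TPM. Krt5 had the highest footprint level of the basal genes in both Ngn1-GFP columns, at 39.0 RPKM in the Ngn1-GFP KO and 44.4 RPKM in its control, against 0.420 RPKM in the OMP-GFP KO and 0.802 RPKM in its control. Its RNA followed the same division, with 26.8 TPM in the Ngn1-GFP KO, 17.5 TPM in its control, 0.241 TPM in the OMP-GFP KO and 0.752 TPM in its control. Both Ngn1-GFP columns were thus far above both OMP-GFP columns in each assay.
Trp63, the master regulator of basal epithelial identity, had 19.9 RPKM in the Ngn1-GFP KO and 11.0 RPKM in its control. It had 0 footprints in both OMP-GFP columns, where 3 counts would be 0.315 RPKM in the KO and 0.361 RPKM in the control. Its RNA was 12.1 TPM in the Ngn1-GFP KO, 9.02 TPM in its control, 0.136 TPM in the OMP-GFP KO and 0.505 TPM in its control. Trp63 RNA was therefore still counted in mature neuron sorts, as 6 and 26 reads, where no footprint was. The footprint columns are shallower, with 4100841 counts against 26946592 of RNA in the OMP-GFP KO, and 3576406 against 31855259 in its control. The ratio of Trp63 footprints to RNA was not called different between the populations in either genotype.
Krt17, a type I keratin also known from injured epithelium, had 18.0 RPKM in the Ngn1-GFP KO and 16.9 RPKM in its control, against 0 in the OMP-GFP KO and 1.07 RPKM (5 footprints) in its control. Krt14, the usual partner of Krt5, had few footprints for its RNA: 2.49 RPKM in the Ngn1-GFP KO and 2.93 RPKM in its control, next to 17.4 TPM and 14.5 TPM of RNA. Krt15 had 0 footprints in the Ngn1-GFP KO and 4.09 RPKM (25 footprints) in its control, and 0 in both OMP-GFP columns. Its RNA was low everywhere, at 1.29 TPM in the Ngn1-GFP KO, 1.21 TPM in its control, 0.192 TPM in the OMP-GFP KO and 0.363 TPM in its control. Krt14 and Krt17 are close relatives, and no source used here says how reads that match several keratins were counted, so the split between these type I genes is uncertain.

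Of the luminal genes Krt18 led in RNA in every column, with 49.1 TPM in the Ngn1-GFP KO, 84.9 TPM in its control, 34.2 TPM in the OMP-GFP KO and 17.7 TPM in its control. Its footprint level was 18.4 RPKM in the Ngn1-GFP KO, 87.3 RPKM in its control, 8.63 RPKM in the OMP-GFP KO and 4.84 RPKM in its control. Krt18 thus stood highest in the Ngn1-GFP control and lowest in the OMP-GFP control.
Krt8, its type II partner, kept the same order of columns in RNA (34.3, 62.5, 14.9 and 8.01 TPM, listed as Ngn1-GFP KO and control, then OMP-GFP KO and control). Its footprints were 10.7, 35.2, 1.66 and 0.949 RPKM in that order. The last 2 values rest on 10 and 5 footprints, and their intervals overlap. Krt8 and Krt18 have processed pseudogenes in mammalian genomes, so their counts also depend on how such reads were treated.
Krt19 had 23.9 RPKM (129 footprints) in the Ngn1-GFP control and 0 in the Ngn1-GFP KO, where 3 counts would be 0.817 RPKM. In OMP-GFP cells it had 3 footprints in the KO and 1 in the control. Its RNA did not show this step between the Ngn1-GFP columns, with 3.64 TPM in the KO and 4.37 TPM in the control. OMP-GFP cells had 0.780 TPM in the KO and 0.895 TPM in the control.
Krt90 differed from the other luminal genes in its spread over the columns. Its footprints were 26.5 RPKM in the Ngn1-GFP KO, 6.66 RPKM in its control, 12.1 RPKM in the OMP-GFP KO and 6.92 RPKM in its control. The 2 control values had overlapping intervals. Its RNA was 16.3 TPM in the Ngn1-GFP KO, 7.90 TPM in its control, 12.2 TPM in the OMP-GFP KO and 5.98 TPM in its control, so both KO columns were above both controls in each assay.

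**Figure D1:**
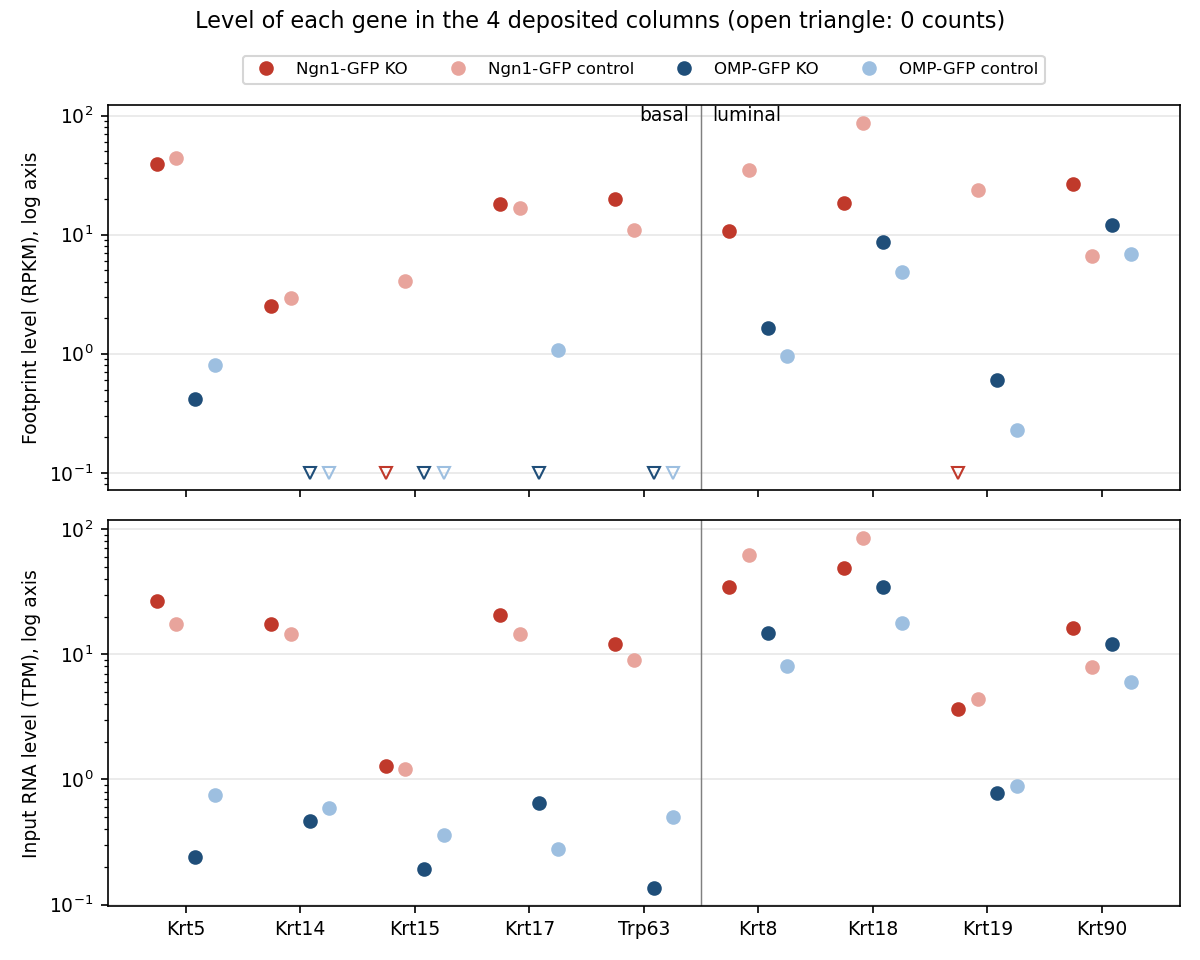
Footprint level (RPKM, upper panel) and input RNA level (TPM, lower panel) of each gene on log axes, with 1 point for each deposited column and open triangles for 0 counts, drawn at the foot of the panel. Krt5, Krt17 and Trp63 separate Ngn1-GFP columns (red) from OMP-GFP columns (blue), whereas Krt90 lies between 6.66 and 26.5 RPKM in all 4 columns.

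The order of the 9 genes by footprint level in the Ngn1-GFP KO was Krt5, Krt90, Trp63, Krt18, Krt17, Krt8, Krt14, and then Krt15 and Krt19 at 0. Counting intervals of the neighbours from Krt90 to Krt8 overlapped. In the Ngn1-GFP control the order was Krt18, Krt5, Krt8, Krt19, Krt17, Trp63, Krt90, Krt15 and Krt14, with overlap between Krt5 and Krt8, between Krt19 and Krt17, and among the last 3. In OMP-GFP cells Krt90 and Krt18 came first in both columns, with overlapping intervals, and the other 7 genes had at most 10 footprints each. By RNA, Krt18 and Krt8 came first in every column, and in both OMP-GFP columns Krt90 came next.

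The Mex3a deletion in Ngn1-GFP cells was compared next, to ask which of these genes differed between KO and control. Krt8, Krt18 and Krt19 were lower in the KO in footprints, Krt15 was lower as well, and Krt90 was higher. The other basal genes, Krt5, Krt14, Krt17 and Trp63, were within 2-fold. All 9 genes had enough counts, and 1 was called higher and 4 lower, where 6.49% of 12554 genes were called higher and 10.8% lower. In RNA, 0 were called higher and 2 lower (Krt8 and Krt18), where 4.49% of 16231 genes were called higher and 11.3% lower.
Krt18 had 71 footprints in the KO against 495 in the control, 4.53-fold lower (-2.18 [-2.56, -1.82]). Its RNA was 2.03-fold lower (-1.02 [-1.11, -0.94]), close to the 2-fold limit. Krt8 had 48 footprints in the KO against 231 in the control (-1.64 [-2.12, -1.19]). Its RNA was 2.14-fold lower (-1.10 [-1.20, -1.003]), so the RNA ratios of both partners were nearly equal. The footprint ratio was more negative for Krt18, with overlapping intervals.
Krt19 had 0 footprints in the KO against 129 in the control, at least 27.9-fold lower when the 0 is set to 3 counts (-4.80, interval bound nearest 0 of -4.48). Its RNA was 85 reads in the KO against 371 in the control (-0.50 [-0.85, -0.15]). Krt15, its neighbour on the chromosome, had 0 footprints in the KO against 25 in the control, at least 5.41-fold lower (-2.44, bound nearest 0 of -2.03). Its RNA was close to level (-0.14 [-0.74, 0.42]). In both neighbours the lack of footprints in the KO was thus not matched by a like lack of RNA.
Krt90 had 130 footprints in the KO against 48 in the control, 4.17-fold higher (2.06 [1.57, 2.57]). Its RNA was 1.75-fold higher (0.81 [0.65, 0.97]), in the same direction and short of 2-fold.
Trp63 had 140 footprints in the KO against 114 in the control, 1.89-fold higher (0.92 [0.55, 1.29]), with RNA at 0.19 [0.05, 0.34]. Krt5 had 206 footprints in the KO against 345 in the control (-0.12 [-0.38, 0.13]) and an RNA ratio of 0.38 [0.26, 0.49]. Krt17 had 71 against 98 footprints (0.16 [-0.30, 0.61]) and Krt14 had 11 against 19 (-0.17 [-1.38, 0.98]). Summed over Krt5, Krt14, Krt15 and Krt17, footprints of basal keratins had a ratio of -0.14 [-0.35, 0.08] and their RNA 0.25 [0.17, 0.32]. Summed over Krt8, Krt18 and Krt19, footprints were 4.67-fold lower (-2.22 [-2.51, -1.94]) and RNA 2.06-fold lower (-1.04 [-1.11, -0.98]).

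**Figure D2:**
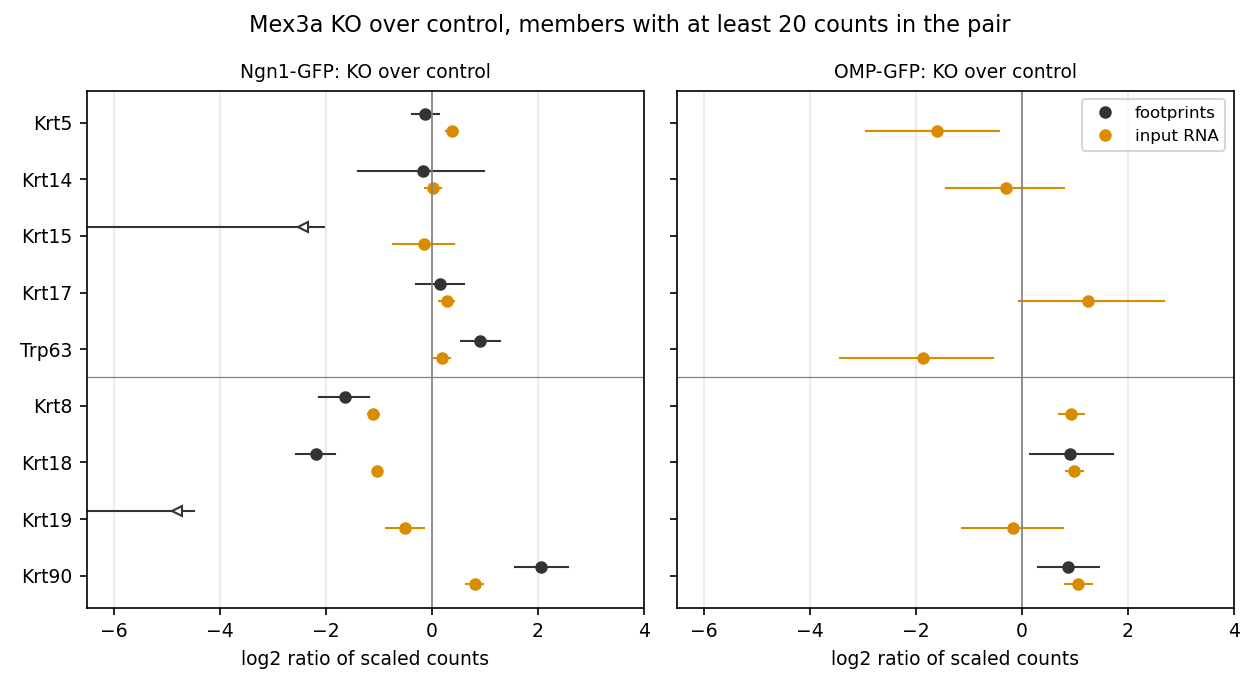
Log2 ratio of KO over control for footprints (black) and input RNA (orange), in Ngn1-GFP cells (left) and OMP-GFP cells (right), with 95% counting intervals. Open triangles mark KO columns with 0 counts, set to 3, and genes with under 20 counts in the pair are left out. Krt8 and Krt18 lie left of 0 in Ngn1-GFP cells and, where measured, right of 0 in OMP-GFP cells.

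Sustentacular cell genes moved with Krt8 and Krt18 in these columns. All 12 of that list were called lower in footprints in the Ngn1-GFP KO (median -2.68, all genes -0.00), and 11 of 12 in RNA. The shares of all genes called lower were 10.8% and 11.3%. The summed level of the list was 813 RPKM in the KO and 5846 RPKM in the control, and none of its genes was at 0 in any column. The detoxifying enzyme Cyp2g1, for instance, had 468 footprints in the KO against 10521 in the control (-3.87). The part that the mix of cells in each sort has in the keratin ratios was not tested.

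In OMP-GFP cells the same genotype comparison went the other way for Krt18, and in RNA also for Krt8, while Krt90 was again above control. Krt5 and Trp63 RNA was lower in the KO, from few reads. In footprints only Krt18 and Krt90 reached 20 counts, and 0 of these 2 were called, where 7.12% of 11160 genes were called higher and 8.54% lower. Krt18 was 1.88-fold higher (45 in the KO against 22 in the control, 0.91 [0.15, 1.72]) and Krt90 1.84-fold higher (80 against 40, 0.88 [0.32, 1.47]). In RNA 8 of 9 genes reached 20 counts, with 1 called higher and 2 lower, where 4.4% of 14351 genes were called higher and 3.89% lower.
Krt90 was the gene called higher in RNA (375 reads in the KO against 214 in the control, 1.07 [0.82, 1.32]). Krt18 RNA, with 828 reads in the KO against 498 in the control, was 1.99-fold higher (0.99 [0.83, 1.16]), just short of the 2-fold limit. Krt8 RNA was 1.92-fold higher (418 against 261 reads, 0.94 [0.71, 1.17]). The 2 partners thus again had nearly equal RNA ratios.
Krt5 RNA was 3.03-fold lower, from 8 reads in the KO against 29 in the control (-1.60 [-2.94, -0.43]). Trp63 RNA was 3.62-fold lower, from 6 reads against 26 (-1.86 [-3.43, -0.54]). The calls rest on 37 and 32 reads in the pair. Krt14 (13 against 19 reads) and Krt19 (18 against 24 reads) had intervals across 0, as had Krt17 (16 against 8 reads, 1.26 [-0.05, 2.69]). Sustentacular genes again moved with Krt8 and Krt18: 7 of 9 measured were called higher in footprints and 11 of 12 in RNA, and their summed level was 522 RPKM in the KO and 172 RPKM in the control.

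The difference between the KO ratios of the populations (OMP-GFP minus Ngn1-GFP) was then formed for each gene. In footprints 2 genes had enough counts in both pairs. Krt18 was called higher (3.09 [2.24, 3.98]) and Krt90 lower (-1.18 [-1.94, -0.42]), where 11.4% of 10845 genes were called higher and 10.5% lower. The Krt90 ratios had the same sign in both populations and differed in size. In RNA 2 of 8 genes were called higher and 2 lower, where 9.08% of 14292 genes were called higher and 4.49% lower. The higher pair was Krt8 (2.04 [1.79, 2.29]) and Krt18 (2.02 [1.83, 2.20]), and the lower pair was Krt5 (-1.97 [-3.32, -0.80]) and Trp63 (-2.05 [-3.63, -0.73]). Krt14, Krt17 and Krt19 were not called, at -0.32 [-1.47, 0.79], 0.98 [-0.34, 2.42] and 0.34 [-0.69, 1.35]. The interval of Krt14 overlapped that of its partner Krt5. Those of Krt17 and Krt5, and of Krt19 and Krt8, did not overlap.

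The populations were compared with each other as the stage comparison of the design, OMP-GFP over Ngn1-GFP. Krt5, Krt17 and Trp63 were at least 13.6-fold lower in OMP-GFP cells in both genotypes and assays, Krt8 was lower in both, Krt18 was lower in controls and within 2-fold in the KO, and Krt90 was within 2-fold in both. In controls, 7 of 8 measured genes were called lower in footprints and 0 higher, where 17.4% of 12387 genes were called lower and 6.11% higher. In RNA 8 of 9 were called lower and 0 higher, where 23.3% of 16150 genes were called lower and 3.49% higher. In the KO, 4 of 6 were called lower in footprints and 0 higher (18.4% and 11.3% of 11766 genes). In RNA of the KO, 7 of 9 were called lower and 0 higher (16.4% and 4.77% of 15058 genes). The comparisons share no column between genotypes. Such a fall was not particular to these genes. In control footprints 12 of 12 sustentacular, 12 of 12 gland, 8 of 9 mesenchyme and vessel, and 9 of 9 neuronal precursor genes were called lower. Respiratory epithelium genes had 4 of 9 lower and immune genes 2 of 7. In the KO the first 4 lists had 3 of 11, 6 of 14 (4 higher), 6 of 8 (1 higher) and 7 of 7 lower.
Krt5 was 79.4-fold lower in footprints in the KO (3 in OMP-GFP against 206 in Ngn1-GFP cells, -6.31 [-8.60, -4.74]) and 47.7-fold lower in controls (5 against 345, -5.58 [-7.21, -4.34]). Trp63 had 0 against 140 footprints in the KO, at least 54.0-fold lower, and 0 against 114 in controls, at least 26.3-fold lower. Krt17 had 0 against 71 footprints in the KO, at least 27.4-fold lower, and 5 against 98 in controls (-3.76 [-5.42, -2.49]). The RNA ratios of these 3 genes ran from -6.65 to -4.85 in the KO and from -5.83 to -4.29 in controls. Basal keratins as a sum had 3 against 288 footprints in the KO (-6.80 [-9.08, -5.23]) and 10 against 487 in controls (-5.07 [-6.14, -4.18]).
Krt14 had 0 against 11 footprints in the KO and 0 against 19 in controls, under the limit of 20, while its RNA was 33.6-fold lower in the KO and 26.9-fold lower in controls. Krt15 RNA was 6.08-fold lower in the KO and 3.65-fold lower in controls.
Krt8 footprints were 5.55-fold lower in the KO (10 against 48, -2.47 [-3.62, -1.47]) and 31.9-fold lower in controls (5 against 231, -5.00 [-6.63, -3.75]). Krt18 footprints were 1.83-fold lower in the KO (45 against 71, -0.87 [-1.44, -0.31]) and 15.6-fold lower in controls (22 against 495, -3.96 [-4.65, -3.35]). For both partners the gap between populations was narrower in the KO, in RNA as well: Krt8 -1.06 [-1.23, -0.89] in the KO and -3.10 [-3.28, -2.92] in controls, and Krt18 -0.38 [-0.51, -0.25] and -2.39 [-2.53, -2.26]. This is the same difference of ratios as given above, read from the other side.
Krt19 had 1 footprint in OMP-GFP against 129 in Ngn1-GFP controls (-6.48 [-11.79, -3.98]), and 3 against 0 in the KO, where no fold is given. Its RNA was 4.22-fold lower in the KO and 5.35-fold lower in controls. Krt90 footprints were -0.91 [-1.33, -0.50] in the KO and 0.27 [-0.37, 0.90] in controls, with RNA at -0.27 [-0.47, -0.08] and -0.53 [-0.75, -0.32].

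**Figure D3:**
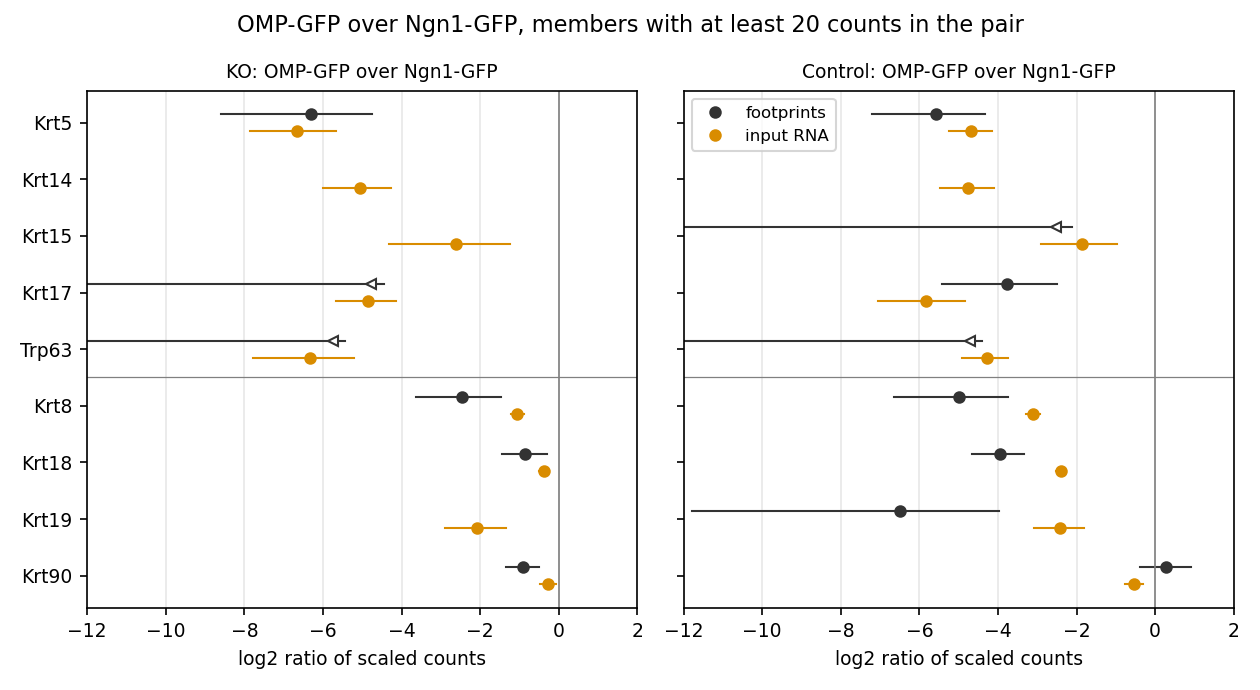
Log2 ratio of OMP-GFP over Ngn1-GFP for footprints (black) and input RNA (orange), in KO (left) and control mice (right), with 95% counting intervals. Open triangles mark OMP-GFP columns with 0 counts, set to 3. Krt5, Trp63 and Krt17 lie at -3.76 or below in both panels, Krt8 and Krt18 lie nearer 0 in the KO, and Krt90 is within 1 log2 unit of 0 in both.

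Footprints were set against RNA as translational efficiency, taken first as the authors' deposited table gives it. Krt19 and Krt15 were at 0 in the Ngn1-GFP KO. There, where the median gene with at least 20 RNA reads had 1.20, Trp63 had 3.16, Krt90 3.15 and Krt5 2.81, against 1.69 for Krt17. Krt18 (0.724), Krt8 (0.605) and Krt14 (0.277) were below the median there. In the Ngn1-GFP control, with a median of 1.35, Krt19 had 9.31, Krt15 5.77, Krt5 4.31, Trp63 2.08, Krt17 1.999, Krt18 1.75 and Krt90 1.44, against 0.959 for Krt8 and 0.344 for Krt14. Krt5 and Krt14, which form a filament together, were on opposite sides of the median in both columns. The Krt14 values rest on 11 and 19 footprints in the KO and control, and the split of reads between Krt14 and Krt17 is uncertain.
Of 14422 genes in the Ngn1-GFP KO 13.5% had a lower efficiency than Krt14, and 16.6% of 16284 genes in its control. For Krt19 in the control the share was 98.2%. In OMP-GFP cells Krt90 had 1.93 in the KO and 2.21 in the control, Krt18 0.492 and 0.521, and Krt8 0.216 and 0.226, at medians of 1.05 and 1.13. These 3 genes thus had the same order in both OMP-GFP columns, whereas in the Ngn1-GFP control Krt18 (1.75) was above Krt90 (1.44). Krt8 was below the median in all 4 columns.
As a ratio of KO over control in Ngn1-GFP cells, efficiency was called higher for 1 of 9 genes and lower for 3, where 7.83% of 12530 genes were called higher and 10.2% lower. Krt90 was higher (1.25 [0.74, 1.78]). Krt18 was lower (-1.16 [-1.55, -0.78]), as were Krt19 (at least 19.8-fold lower, -4.31, bound nearest 0 of -3.83) and Krt15 (-2.30, bound nearest 0 of -1.57). These efficiency ratios use both control columns that stood apart. Trp63 (0.73 [0.33, 1.12]), Krt5 (-0.50 [-0.78, -0.22]) and Krt8 (-0.54 [-1.03, -0.08]) were within 2-fold.
In OMP-GFP cells KO over control, 0 of 2 genes were called, where 7.02% of 11124 genes were called higher and 8.96% lower. Krt18 had -0.08 [-0.86, 0.74] and Krt90 -0.19 [-0.81, 0.45]. Between populations in the KO, 0 of 6 were called higher and 1 lower (9.69% and 13.4% of 11717 genes), which was Krt8 (-1.42 [-2.58, -0.40]). In controls 1 of 8 was called higher and 3 lower (5.71% and 8.89% of 12374 genes). The lower genes were Krt8 (-1.90 [-3.55, -0.64]), Krt18 (-1.57 [-2.27, -0.94]) and Krt19 (-4.06 [-9.41, -1.47]). The higher gene was Krt17 (2.07 [0.14, 3.82]), which had 5 footprints and 8 RNA reads in OMP-GFP controls.

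**Figure D4:**
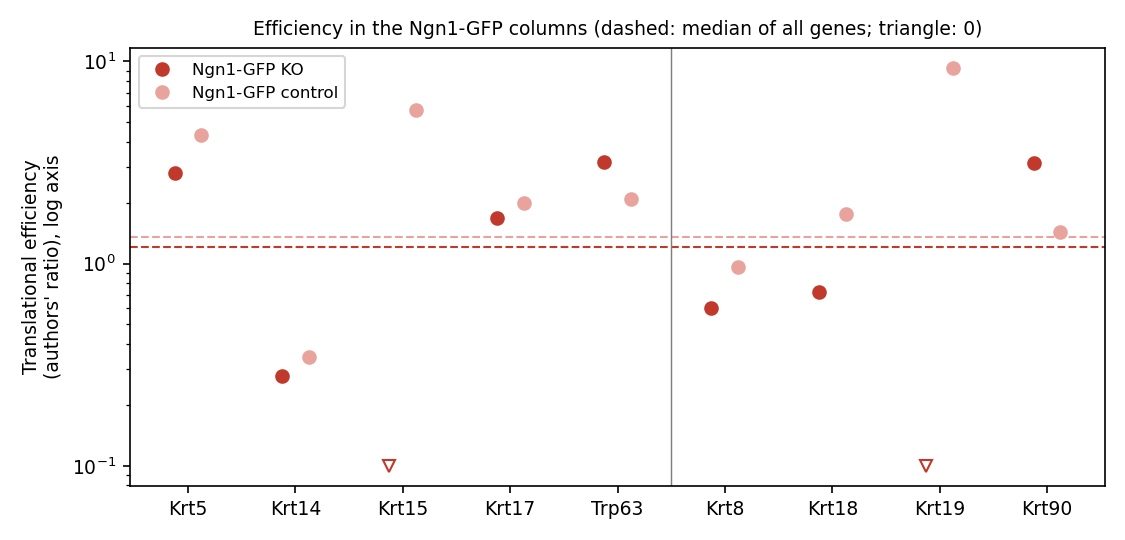
Translational efficiency from the authors' deposited table for each gene in the Ngn1-GFP columns on a log axis, KO in dark and control in light red. Dashed lines are medians of all genes with at least 20 RNA reads (1.20 and 1.35), and open triangles mark Krt15 and Krt19, which were at 0 in the KO.

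Because keratins assemble in pairs, type I levels were set against type II levels within each column. By RNA, Krt18 was 1.43 times Krt8 in the Ngn1-GFP KO and 1.36 times in its control, and 2.29 and 2.21 times in the OMP-GFP KO and control. By footprints the ratio was 1.71 in the Ngn1-GFP KO and 2.48 in its control, and 5.21 and 5.10 in the OMP-GFP KO and control. Krt18 was thus above Krt8 per length in every column and in both assays.
For the basal pair, Krt14 RNA was 0.651 times Krt5 RNA in the Ngn1-GFP KO and 0.827 times in its control. By footprints Krt14 was 0.064 and 0.066 times Krt5, from 11 and 19 Krt14 footprints, with the split of reads between Krt14 and Krt17 uncertain. Krt14, Krt15 and Krt17 together came to 1.47 times Krt5 by RNA in the Ngn1-GFP KO and 1.72 times in its control, and to 0.525 and 0.538 times by footprints. In OMP-GFP cells these sums rest on at most 5 footprints.

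The table holds 45 other keratin genes, and at most 5 of them reached 20 footprints in any column. In the Ngn1-GFP KO the 8 keratins described here held 64.0% of the summed footprint level of all keratins and 85.7% of the summed RNA level, and in its control 73.3% and 86.3%. In OMP-GFP cells they held 24.7% of footprints in the KO and 26.2% in the control, against 79.8% and 65.4% of RNA. Krt36 and Krt72 led the other keratins by footprint level in both OMP-GFP columns. Krt36, a hair keratin gene, had 153, 153, 235 and 70 footprints (Ngn1-GFP KO and control, OMP-GFP KO and control) and 0 RNA reads in all 4 columns. Where its footprints come from is therefore uncertain. Krt36 held 40.3 of the 71.1 RPKM of other keratins in the OMP-GFP KO and 13.8 of 41.8 RPKM in its control. The footprint shares above depend on it. Krt72, a type II keratin gene of the hair follicle, had 19.8 RPKM of footprints in the OMP-GFP KO and 16.1 RPKM in its control, next to 2.82 TPM and 3.27 TPM of RNA. Krt23, a type I epithelial keratin, followed the luminal genes in part, with 55 footprints in the Ngn1-GFP KO, 145 in its control, 0 in the OMP-GFP KO and 5 in its control.

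Genes with the nearest profiles over the 8 columns were listed for 4 genes, by the root mean square difference of log2(CPM + 1) after centring each assay. Among 11869 genes, Trp63 was nearest to Krt5 and Krt5 nearest to Trp63, at 0.34 log2 units. The other 4 nearest Krt5 were Neurod1 and Neurog1, proneural transcription factor genes of the neuronal lineage, the chemokine receptor gene Cxcr4 and the retinoid-binding protein gene Crabp1 (0.40 to 0.50). For Trp63 they were Serpinf1, which encodes a secreted serpin, Cxcr4, the Notch-modifying gene Mfng and Neurod1 (0.35 to 0.47).
Krt8 was nearest to Anxa2, an annexin gene, then Nt5dc2, Ctnnal1, the transcription factor gene Otx2 and the epithelial cadherin gene Cdh1 (0.25 to 0.29). Krt18 was nearest to Epas1, a hypoxia-regulated transcription factor gene, then the growth factor gene Tgfb2, Dapl1, the transcription factor gene Sall1 and Ctnnal1 (0.20 to 0.23). Krt8 and Krt18 were nearest to each other among the 9 genes, at 0.42. The points share their columns, so these distances describe 4 groups of cells only.

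Other genes of basal and luminal epithelium were counted beside them. Of all genes, 6.49% were called higher and 10.8% lower in footprints in the Ngn1-GFP KO, and 7.12% and 8.54% in the OMP-GFP KO. Horizontal basal cell genes had 0 of 12 called higher and 5 lower in footprints in the Ngn1-GFP KO (median -0.51, RNA 0.04). The adhesion gene Icam1 (3 footprints in the KO against 25 in the control) and the transcription factor gene Pax6 (13 against 96) were among them. In RNA of these columns 1 of 12 was called lower, Sox2 (234 against 1652 reads), where 11.3% of all genes were. Krt5, Krt14, Krt17 and Trp63 were within 2-fold there in both assays. Whether genes of this list also come from support cells was not tested. In OMP-GFP cells KO over control, 1 of 4 measured was called higher, the water channel gene Aqp3 (129 against 28), and 1 lower, the hyaluronan receptor gene Cd44 (11 against 59). In RNA of that pair 4 of 11 were called higher and 0 lower (median 0.65), where 4.4% and 3.89% of all genes were. Aqp3 (237 against 48 reads) and Egfr (25 against 8) were among the 4. Krt5 and Trp63 RNA was instead called lower there, from few reads. The RNA difference between populations was called higher for 4 of 11, including Sox2 (2.38) and Aqp3 (3.44), as for all 12 sustentacular genes. It was called lower for 2, Icam1 (-1.69) and Cd44 (-1.36). Of all genes, 9.08% were called higher and 4.49% lower. Between populations, 7 of 9 were called lower in footprints in the KO and 10 of 12 in controls, where 18.4% and 17.4% of all genes were. All 12 had footprints in both Ngn1-GFP columns, while Col17a1 had 0 in both OMP-GFP columns.
Hemidesmosome and basement membrane genes, which anchor basal keratin filaments, had 1 of 12 called higher and 1 lower in the Ngn1-GFP KO. Lama3, a laminin chain gene, had 39 footprints in the KO against 8 in the control (2.91 [1.79, 4.22]), and 19 against 2 in OMP-GFP cells (3.13 [1.08, 6.27]). Col17a1, the collagen of hemidesmosomes, had 12 against 40 in Ngn1-GFP cells (-1.11 [-2.18, -0.16]). In OMP-GFP cells 1 of 8 was called higher and 1 lower.
Desmosome and keratin linker genes had 2 of 15 called higher and 1 lower in the Ngn1-GFP KO, and 2 of 13 higher and 1 lower in the OMP-GFP KO. Pkp1, a plakophilin gene of desmosomes, was higher in both (38 footprints in the KO against 22 in the control, and 19 against 2). The linker gene Evpl was higher in Ngn1-GFP cells (52 against 26), where Eppk1 had 0 against 21. Dsc3, a basal desmosomal cadherin gene, had 10 footprints in OMP-GFP against 72 in Ngn1-GFP cells of the KO, and 0 against 129 in controls.
Genes of the p53 family and targets of p63 had 0 of 13 called in footprints in the Ngn1-GFP KO and 0 of 11 in the OMP-GFP KO, with medians of 0.02 and 0.18. Between populations the p53 relative Trp73 was lower (0 in OMP-GFP against 22 in Ngn1-GFP cells of the KO, and 3 against 22 in controls), and so was the growth factor receptor gene Fgfr2 (0 against 22, and 6 against 31).
Simple epithelium genes had 0 of 19 called higher and 4 lower in the Ngn1-GFP KO (median -0.25), including Cdh1 (156 against 1004 footprints, -2.06) and the mucin gene Muc1 (29 against 210, -2.23). In the OMP-GFP KO 2 of 15 were called higher, among them the tight junction gene Cldn4 (31 against 3 footprints), and 2 lower, Tjp3 (2 against 22) and Prom1 (23 against 46). Other intermediate filament genes had 1 of 10 higher and 1 lower in the Ngn1-GFP KO, and 1 of 9 higher and 1 lower in the OMP-GFP KO. In the last comparison the neurofilament gene Nefl was lower (27 against 180) and Synm, which encodes synemin, was higher (503 against 222). Of the other keratins, 0 of 6 were called higher and 2 lower in the Ngn1-GFP KO, and 1 of 4 higher and 0 lower in the OMP-GFP KO. The higher one was Krt36 (235 against 70 footprints), which had 0 RNA reads.

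**Figure D5:**
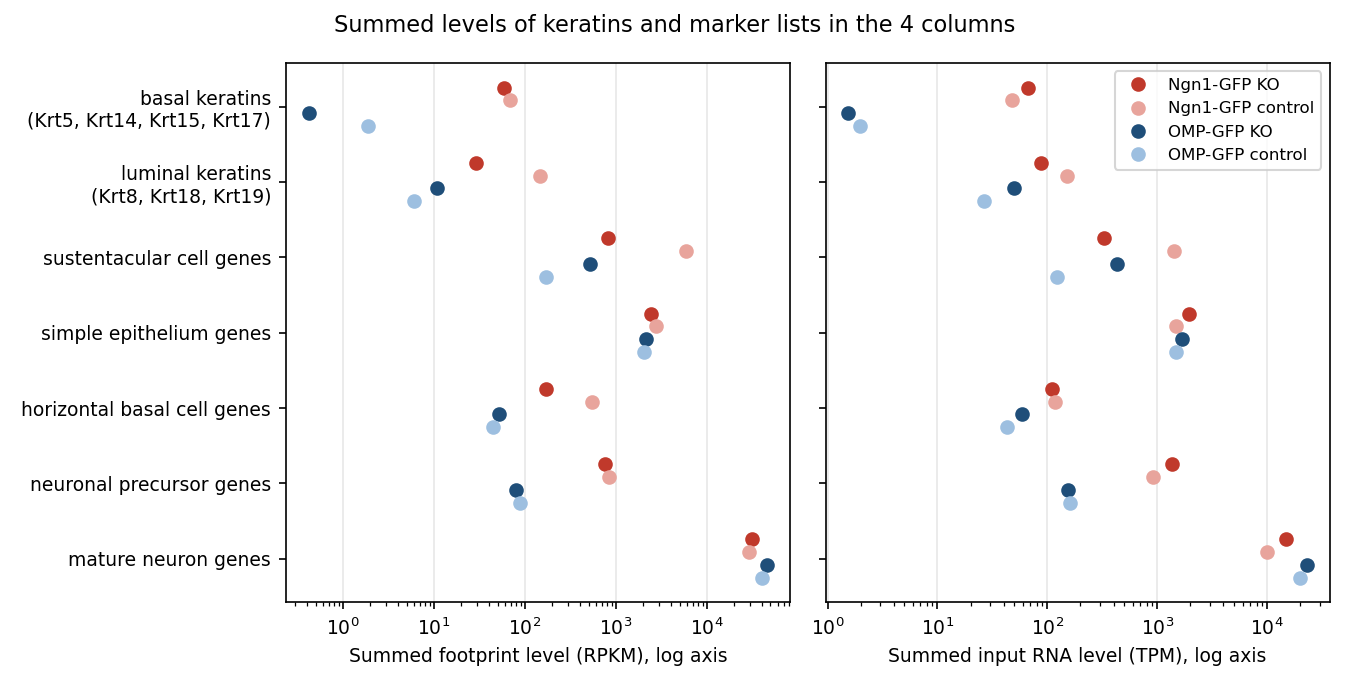
Summed footprint level (RPKM, left) and input RNA level (TPM, right) on log axes for basal keratins, luminal keratins and 5 lists of marker genes, with 1 point for each deposited column. Luminal keratins and sustentacular genes are highest in the Ngn1-GFP control and lowest in the OMP-GFP control in footprints, and basal keratins and neuronal precursor genes are lower in both OMP-GFP columns.

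Markers of other cells were counted in the same way in footprints, since the sorts could hold such cells. The shares of all genes called higher and lower were 6.49% and 10.8% in the Ngn1-GFP KO, and 7.12% and 8.54% in the OMP-GFP KO. In the Ngn1-GFP KO, gland genes had 4 of 13 higher and 0 lower, respiratory epithelium genes 0 of 9 and 3, and microvillar, tuft and ionocyte genes 1 of 7 and 2. Immune genes had 2 of 7 higher and 3 lower, mesenchyme and vessel genes 2 of 9 and 1, and ensheathing glia genes 2 of 5 and 1. Neuronal precursor genes had 0 of 9 higher and 1 lower, and 0 of 10 immature and 0 of 12 mature neuron genes were called. In the OMP-GFP KO, gland genes had 10 of 12 higher and 0 lower, with a summed level of 815 RPKM against 95.3 RPKM in the control. Apart from the sustentacular genes given above, the other lists had at most 2 genes called in either direction there. Mature neuron genes summed to 45808 RPKM in the OMP-GFP KO and 40647 RPKM in its control, and to 31100 RPKM in the Ngn1-GFP KO and 28901 RPKM in its control, so the levels of the 9 genes described here were small beside them in all columns. The part of the gland and support cells in the keratin values was not tested.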

How the data were processed

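Footprint and input RNA libraries came from sorted cells of the mouse main olfactory epithelium. FastQC, cutadapt, STAR and mm10 are named, without versions, per the submitters' processing notes. Per the file headers, the deposited table holds counts over coding sequences, coding length in bases, the authors' translational efficiency ratio, RPKM of footprints and TPM of RNA, with 1 column of each a group. No source used here says how the 2 libraries of a group became 1 column.

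Counts were scaled by TMM (edgeR 4.0.16, R 4.3.3) over 13479 footprint and 16388 RNA genes that passed filterByExpr (minimum count 10, minimum total 15). Ratios, exact conditional binomial intervals for counts and approximate intervals for efficiency and for differences of ratios were computed in Python 3.11.15 with scipy 1.17.1, and checked on simulated data. Level intervals are exact Poisson intervals. Calls needed 20 counts in the pair, a 2-fold ratio and an interval excluding 1, over all genes, and a 0 was set to 3 counts. Intervals cover counting error at most, and they may be too narrow even for that, since reads copied by PCR are not independent molecules. Motif windows and gene positions come from RefSeq GRCm38.p6.

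The text names all 9 members, Mex3a, up to 4 called genes of each of 17 lists (the 2 highest and 2 lowest), and the 5 nearest profiles of 4 members. Krt36, Krt72 and Krt23 were named after their values were seen. The members, lists and rules were chosen with earlier results of these data known. Other settings tried were a minimum of 100 counts in the pair, 0.5 added counts, the efficiency column of the authors, unfiltered genes, and scaling by DESeq2 1.42.0, by totals only, or by TMM computed with olfactory receptor, mitochondrial and ribosomal protein genes left out.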

Additional observations from a re-analysis of the deposited data

Results flagged for a closer look

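The KO ratios of the populations had opposite signs, each with an interval that excluded 0, for Krt18 in both assays and for Krt8, Krt5 and Trp63 in RNA. The share of all genes with opposite signs was not counted. With 1 column a group the difference between populations was described by counting intervals and not tested over animals. In footprints Krt18 differed by 3.09 [2.24, 3.98] log2 units (OMP-GFP minus Ngn1-GFP). In RNA Krt18 differed by 2.02 [1.83, 2.20] and Krt8 by 2.04 [1.79, 2.29], above control in the OMP-GFP KO and below control in the Ngn1-GFP KO. Krt5 RNA differed by -1.97 [-3.32, -0.80] and Trp63 RNA by -2.05 [-3.63, -0.73], below control in the OMP-GFP KO, where they had 8 and 6 reads, and slightly above control in the Ngn1-GFP KO. Sustentacular genes differed in the same direction as Krt8 and Krt18. In the footprint difference 9 of 9 measured genes of that list were called higher, where 11.4% of all genes were. Gland genes had 7 of 11 called higher and 1 lower there (median 2.73), where 10.5% of all genes were lower. In footprints of the Ngn1-GFP KO over control, however, 0 of 13 gland genes were called lower. The part of the sustentacular and gland genes in the keratin values was not tested.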

How the results depend on the processing

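No paired analysis was possible because the table has 1 column a group, so neither a replicate block nor leaving out a library could be run. Most counts of members called stayed within 1.5 times of the counts given above. With library size alone, 1 gene in place of 2 was called in RNA of the Ngn1-GFP KO over control, since Krt18 went to -0.97. With the authors' efficiency column, 2 in place of 4 were called for the Ngn1-GFP KO, because Krt15 and Krt19 have an efficiency of 0 there and no log ratio. With 100 counts in the pair, fewer genes qualified. The numbers called were then 1 in place of 3 in RNA of the OMP-GFP KO over control (Krt5 and Trp63 lost), and 2 in place of 4 in footprints of OMP-GFP over Ngn1-GFP in the KO (Krt8 and Krt17 lost). They were 0 in place of 1 in efficiency of that pair (Krt8 lost), 1 in place of 2 in the footprint difference of KO effects (Krt18 lost), and 2 in place of 4 in the RNA difference (Krt5 and Trp63 lost). Krt15 also lost its call at 100 counts in footprints of the Ngn1-GFP KO over control (4 genes called in place of 5), in efficiency of that pair, in footprints of OMP-GFP over Ngn1-GFP in controls and in RNA of OMP-GFP over Ngn1-GFP in the KO. The RNA difference was added after the data were seen. Of 589 values of single genes under these alternatives, 569 kept their call status, 15 lost a call and 5 gained one, and no called value changed sign. Uncalled efficiency ratios of OMP-GFP over Ngn1-GFP in the KO changed sign for Krt17 (0.07, but -0.03 by library size alone and -2.56 with 0.5 counts added) and Trp63 (0.58, but -2.12 with 0.5 counts added). Krt18 RNA in the OMP-GFP KO passed the 2-fold limit with DESeq2 size factors (1.01), and Krt18 and Krt90 footprints of OMP-GFP over Ngn1-GFP in the KO passed it by library size alone (-1.09 and -1.14). Library size alone moved the median of all genes by -0.21 in controls and -0.23 in the KO for the footprint ratio of OMP-GFP over Ngn1-GFP, a move common to all genes. Depth limits what can be said of the basal genes and of Krt19 in OMP-GFP cells, where each had at most 5 footprints.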
